A study of Homo sapiens with 6 samples.

Results

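Abundant long intergenic noncoding RNAs (lincRNAs) were examined in HK-2 cells, an established human line from the proximal tubule of the kidney that was immortalised with genes of human papillomavirus 16. The members were the rows of the deposited counts table that its annotation called lincRNA and whose mean raw count over the 6 libraries was 150 or more. Rows named RMRP, RPPH1, TERC or SCARNA2, or with a symbol beginning RN7S, were set aside. This left 86 of 26899 genes in the table, and 2660 further lincRNA rows lay below the cut. Of the rows set aside by symbol, 3 were lincRNA rows (RMRP, RN7SL832P and TERC) and 0 of these reached the cut. The last rows inside it were NAV2-AS6 (ENSG00000270607.1, given by its GENCODE 44 name), RP11-259N19.1 and LINC01089, with mean counts of 157.8, 153.7 and 151.8. Just outside it were CTD-3252C9.4, LINC00623 and MIR4458HG, with 149.7, 148.8 and 146.5.

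The series compared 3 libraries labelled control with 3 libraries labelled ANXA2 knockdown, from HK-2 cells in both groups. Sample titles called the control cells wild type and sample descriptions called them shCtrl, so the labels do not settle whether a control hairpin was present. The knockdown group was labelled shANXA2, the plasmids were delivered with Lipofectamine 2000, and polyadenylated RNA was selected with oligo(dT) before directional libraries were made. No label says that replicates came from separate cultures, so p-values measure the spread between these libraries, which may be technical.

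A lincRNA is a transcript longer than a small RNA that does not overlap a protein-coding gene on its strand and for which no protein product was annotated. Some are architectural and hold nuclear bodies together, such as NEAT1 in paraspeckles. Others act in the cytoplasm by binding proteins or microRNAs, and many serve mainly as precursors, because small nucleolar RNAs (snoRNAs) or microRNAs are cut out of them. Most are spliced, capped and polyadenylated by the machinery that makes mRNA, but they are usually less abundant than mRNA.

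Library depth ranged from 24231267 to 34561675 counted reads, and 18861 to 21819 genes had at least 1 read. Control replicate 1 was the shallowest and stood apart on the first principal component of log2 CPM (38.5% of the variance), at -61.8 against -13.7 to 26.4 for the other libraries. Knockdown replicate 3 was the next shallowest, at 28866835 counted reads, and had the next fewest genes with a read (19569). ANXA2, the labelled target, reached 1598 ± 119 CPM (SD, n = 3) in the libraries labelled control and 1539 ± 21.3 CPM in those labelled knockdown. Here CPM is a read count scaled to the depth of its library, with TMM scaling between libraries. The edgeR log2 fold change of ANXA2 was -0.05 (95% interval -0.223 to 0.115, Benjamini-Hochberg adjusted p = 0.848), and an exact two-sided permutation test gave p = 0.4, against a smallest possible value of 0.1 for groups of 3. The label knockdown was thus not borne out by the ANXA2 transcript, so higher and lower refer here to the labels and not to a measured loss of ANXA2. Of 13 proximal tubule markers, 3 exceeded 1 FPKM in any library (GGT1, PAX8 and PAX2), whereas CUBN, SLC34A1, SLC5A2, SLC22A6, AQP1 and HNF4A did not, so the defining transporters of the labelled cell type were absent or nearly so. The summed FPKM of the proximal tubule list ranged from 143 to 195 in the libraries labelled control and from 151 to 231 in those labelled knockdown. The podocyte, endothelial and thick limb lists had 0 members above 1 FPKM, and the sums of the collecting duct, fibroblast and leukocyte lists stayed between 0.24 and 1.71 FPKM.

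The members took a small share of the transcriptome. They held 0.1918%, 0.1872% and 0.1561% of all counted reads in the libraries labelled control and 0.1737%, 0.1706% and 0.1743% in those labelled knockdown. The 2 ranges overlapped. Between 68.4% and 70.22% of all lincRNA reads fell in the members. The 10 members with the most reads held most of these, and the leading 4 (MALAT1, BCYRN1, MIR4435-2HG and LINC00657) took 34.58%. BCYRN1 alone took between 5.505% and 21.11% of member reads in a library, and MALAT1 between 10.63% and 19.5%. Without BCYRN1 the share was 0.1539% (mean) in the libraries labelled control and 0.1577% in those labelled knockdown, against 0.1784% ± 0.0194 and 0.1729% ± 0.00198 (SD, n = 3) with it, which turned the order of the means.

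Levels of different genes were compared by the deposited FPKM, which divides by transcript length. Over the 86 members the median of the mean FPKM was 3.938, against 8.273 for the 10245 protein-coding rows that passed the same count cut. Only LINC00662 had a mean below 1 FPKM (0.782), 42 members lay between 2 and 5 FPKM, and 8 exceeded 20 FPKM. SNHG8 was highest at 33.7 FPKM. Both medians are levels per length among rows chosen on raw counts, so longer transcripts entered at lower FPKM. The lengths of the lincRNA and protein-coding rows were not compared.

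**Figure D1:**
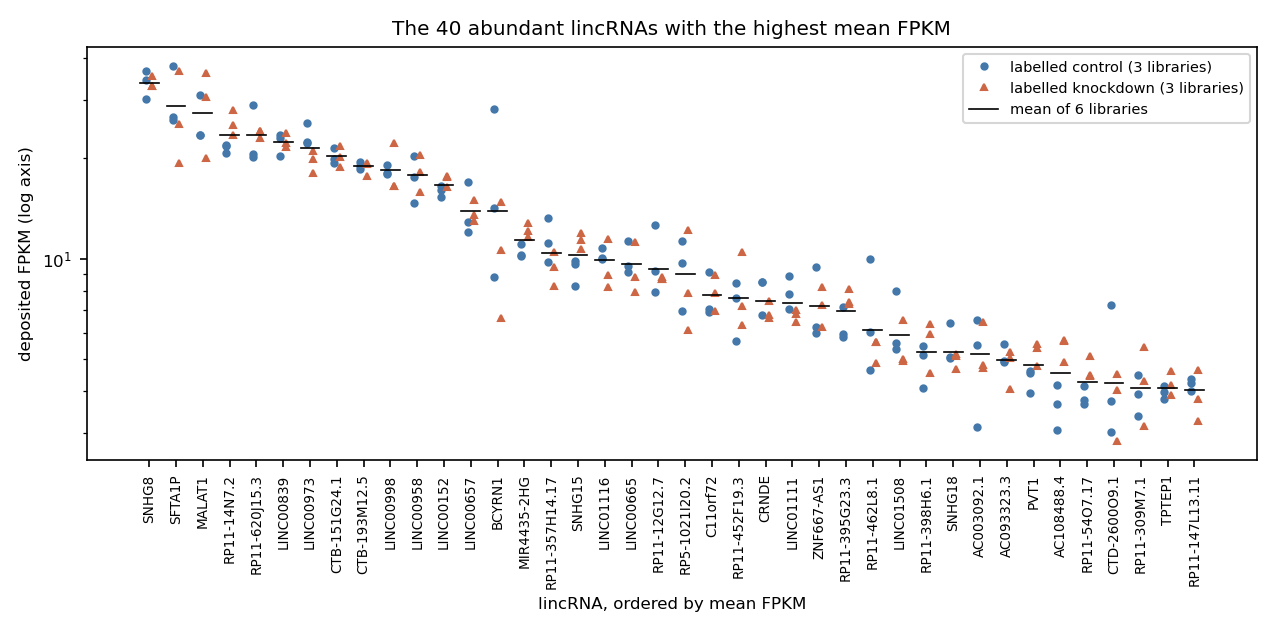
FPKM (log axis) of the 40 abundant lincRNAs with the highest mean FPKM, with circles for the 3 libraries labelled control, triangles for the 3 labelled knockdown and dashes for the mean of the 6. SNHG8 leads at a mean of 33.7 FPKM, and BCYRN1 spans the widest range among the leading 20, from 6.62 to 28.1 FPKM.

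The 12 leading members by FPKM were a mixed set. SNHG8, a host gene of snoRNAs, held 36.5, 34.5 and 30.1 FPKM in the libraries labelled control and 35.3, 33.1 and 32.9 FPKM in those labelled knockdown, and ranked first or second in each library. SFTA1P, a transcribed pseudogene of a surfactant-associated gene, held 38.0, 26.6 and 26.0 FPKM against 25.3, 19.4 and 36.7 FPKM. MALAT1 followed at 23.5, 31.0 and 23.6 FPKM against 30.5, 36.1 and 20.03 FPKM. The spread of the last 2 across libraries exceeded the gaps between neighbours in the order, as MALAT1 ranked from 1 to 10 and SFTA1P from 1 to 8 depending on the library. RP11-14N7.2 (LINC02802) and RP11-620J15.3 (GIHCG) shared a mean of 23.5 FPKM. LINC00839, LINC00973, CTB-151G24.1 (ERVK-28, at an endogenous retrovirus locus) and CTB-193M12.5 came next, with means of 22.5, 21.5, 20.3 and 18.9 FPKM. LINC00998 (18.4 FPKM), LINC00958 (17.9 FPKM) and LINC00152 (16.6 FPKM) completed the set. The steadiest of the 12 was CTB-193M12.5, at 17.7 to 19.6 FPKM over the 6 libraries.

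LINC00998 is now annotated in GENCODE 44 as SMIM30, a protein-coding gene for a small integral membrane protein. It was 1 of 4 members with a protein-coding biotype in that release, the others being ZNF883, HCG22 and AC093323.3. Another 73 were lncRNA genes, 4 were transcribed pseudogenes (TPTEP1, LINC00680, RP11-504P24.8 and RP11-384K6.6), BCYRN1 was a small cytoplasmic RNA gene, and 4 identifiers were not matched. The term lincRNA here is therefore that of the deposited table.

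Ranking by counts gave a different order, since counts grow with length. Only 4 members were in the leading 12 by both FPKM and count (MALAT1, LINC00839, LINC00152 and LINC00958). NEAT1 had rank 5 by count but rank 64 of 86 by FPKM, at 2.65, 2.83 and 1.57 FPKM in the libraries labelled control and 3.0, 2.77 and 2.66 FPKM in those labelled knockdown. The transcript length implied by its counts and FPKM was 24118 bases, and its gene spans 22767 bases (chromosome 11, 65422774 to 65445540, plus strand). Over the 12 members with a single exon and a single transcript, the implied length was a median of 1.058 times the annotated one and at least 1.043 times.

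BCYRN1 encodes BC200, a short cytoplasmic RNA of primates related to Alu elements that is known from neurons. Its row implied a length of 14249 bases, 71.25 times the 200 bases of the gene in GENCODE 44 (chromosome 2, 47335315 to 47335514, plus strand). The counts in this row thus come from an interval far longer than BC200 itself, and they cannot be read as the level of that RNA. TPTEP1 (11266 bases implied, 1701 annotated), RP11-384K6.6 (4652 and 138) and LINC00680 (3142 and 2317) also had longer deposited than current models.

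Sequence sharing limits some other rows. When member transcripts were divided into windows of 100 bases, 46 members shared no window with another gene, 18 shared more than 10% and 7 more than 50%. RP11-14N7.2 shared 76.86% of its windows, mostly with LSP1P5, and AC108488.4 shared 70.04% with an overlapping gene model (ENSG00000286905). MIR4435-2HG and LINC00152 (CYTOR) lie in duplicated sequence on chromosome 2, and 18.59% of the windows of the first and 36.8% of those of the second occur in the other. Exons of 31 members overlap a gene on the opposite strand and those of 24 a gene on the same strand. Some members also lie wholly inside a protein-coding gene, among them CTB-193M12.5 (NDE1), RP11-620J15.3 (ATP23), NAV2-AS6 (NAV2) and AC004951.6 (SPDYE1). The strand setting of the counting step is not stated, so reads of overlapping partners or enclosing genes cannot be told apart.

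The comparison of labels asked whether abundant lincRNAs differ between the libraries labelled knockdown and labelled control. The rule used the mean raw count over both groups, so a high group could carry a row past the cut. In 78 members both group means reached 150 reads. The other 8 entered through their higher group: AC108488.4, NAV2-AS6, RP11-259N19.1, LINC01089, LINC00941 and LINC00880 had a mean below 150 reads in the libraries labelled control, and LINC00662 and ZNF883 in those labelled knockdown. Differences of these 8 are given as a description, and counts over the members are not support for a difference. All 86 passed the filter on low counts. With edgeR's quasi-likelihood test and Benjamini-Hochberg adjustment over 15299 tested genes, 0 members passed an adjusted p of 0.05, and percent called over all tested genes was also 0%. The smallest adjusted p among members was 0.599 (AC108488.4) and the smallest among all tested genes was 0.131. In bulk libraries, less of an RNA per cell and fewer cells holding it cannot be told apart. At an unadjusted p under 0.05 there were 5 members (5.81%), below the 8.18% of all tested genes. Of these, 4 were higher in the libraries labelled knockdown (background 3.86%) and 1 was lower (background 4.32%). The first 4 were MIR4435-2HG, SNHG15, AC108488.4 and NAV2-AS6, and the last was AC004951.6. Of the 5, AC108488.4 and NAV2-AS6 were among the rows that entered through their higher group. The DESeq2 test gave 0 members past the adjusted threshold (31 of all genes) and 4 (4.65%) at an unadjusted p under 0.05, beside 4.78% of all genes. In edgeR without the low-count filter 1 member passed, BCYRN1 (adjusted p = 1.47e-05, against 0.66 with the filter and up to 0.988 over the alternatives).

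Group values did not overlap in 14 members (16.3%), near the background of 15.6%. In 10 of them the libraries labelled knockdown lay above (background 7.94%): MIR4435-2HG, SNHG15, PVT1, RP11-14N7.2, RP11-395G23.3, RP11-54O7.17, LINC01006, AC108488.4, NAV2-AS6 and RP11-259N19.1. In 4 they lay below (background 7.7%): LINC00973, AC004951.6, LINC00662 and ZNF883. Of the 14, 5 had entered through their higher group (AC108488.4, NAV2-AS6, RP11-259N19.1, LINC00662 and ZNF883). These shares do not set the members apart from other genes.

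Estimated differences were small throughout. The median log2 fold change (knockdown over control labels) was 0.0175 over the members and -0.00645 over all tested genes. The estimate was positive in 46 members and negative in 40, it ranged from -0.66 (BCYRN1) to 0.65 (NAV2-AS6), and 70 members lay within 0.3 of zero on the log2 scale. No member reached an absolute estimate of 1, and the 95% intervals of 74 members lay wholly within 1 log2 unit of zero. For the other 12 members a difference beyond 1 log2 unit lay inside the interval.

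**Figure D2:**
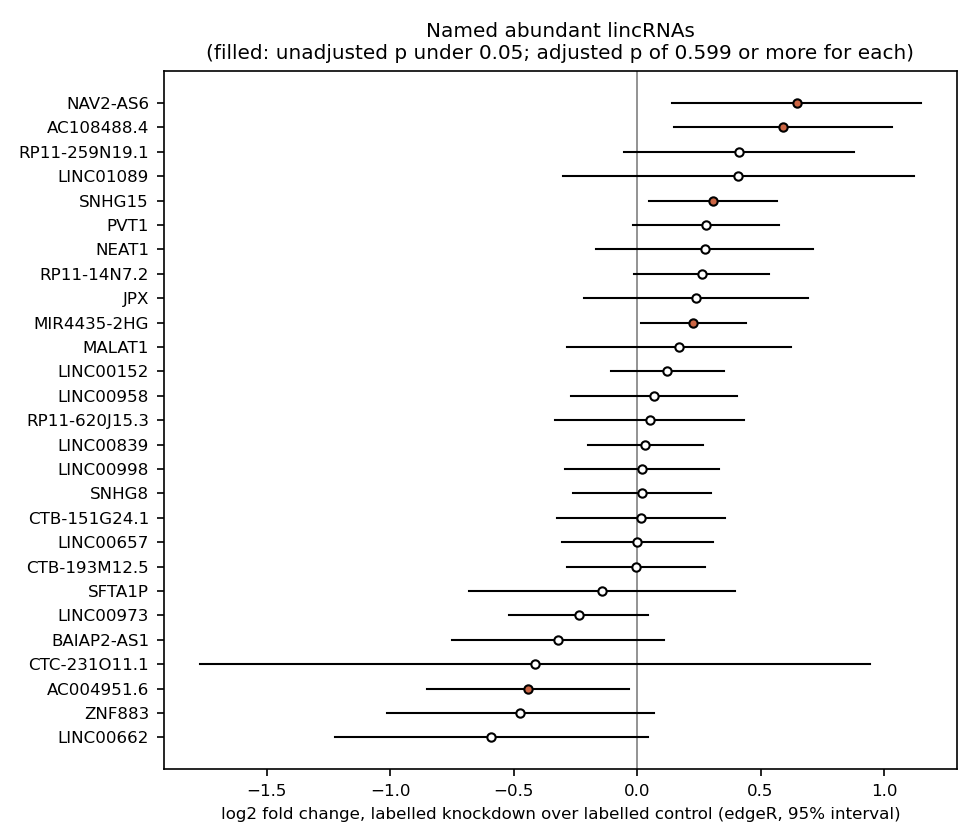
Log2 fold change, labelled knockdown over labelled control, of the 27 named lincRNAs with its 95% interval from edgeR, with filled points at an unadjusted p under 0.05. The smallest adjusted p is 0.599, and the interval of CTC-231O11.1 is the widest, from -1.77 to 0.94.

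Nuclear body RNAs were represented by MALAT1 and NEAT1. MALAT1 (chromosome 11, 65497640 to 65508073, plus strand) is retained in nuclear speckles, where splicing factors are stored. It lacks an ordinary poly(A) tail and is captured by oligo(dT) through an encoded A-rich stretch, so its level after such selection need not be its level in the cell. MALAT1 held 218, 283 and 218 CPM in the libraries labelled control and 286, 337 and 185 CPM in those labelled knockdown. The highest and the lowest of the 6 values were both in the knockdown group. In edgeR the log2 fold change was 0.17 (standard error 0.201, adjusted p = 0.822). Leaving out knockdown replicate 2 gave -0.02, and leaving out knockdown replicate 3 gave 0.38. NEAT1, the scaffold of paraspeckles, held 64.2, 67.2 and 37.8 CPM against 73.0, 67.4 and 63.9 CPM. Control replicate 3 was low and the other 5 libraries lay close together. Its log2 fold change of 0.27 (standard error 0.195, edgeR adjusted p = 0.704) was 0.05 without that library.

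The proteins of the same bodies were read as a list of 17 symbols, measured in 18 rows because TARDBP had more than 1. In edgeR 0 passed the adjusted threshold, and the median log2 fold change was -0.0167. At an unadjusted p under 0.05, 0 were higher and 2 lower, beside 3.86% and 4.32% of all tested genes. The 2 were NUDT21, a subunit of the mRNA cleavage factor CFIm, and SRSF1, a splicing factor. NUDT21 held 132, 141 and 125 CPM in the libraries labelled control and 106, 104 and 112 CPM in those labelled knockdown, a log2 fold change of -0.30 (edgeR adjusted p = 0.599). SRSF1 held 195, 212 and 199 CPM against 161, 169 and 175 CPM, a log2 fold change of -0.26 (edgeR adjusted p = 0.599). In both genes the groups did not overlap, as in 15.6% of all tested genes. The core paraspeckle proteins SFPQ, NONO and PSPC1 had log2 fold changes of -0.03, -0.03 and 0.07.

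**Figure D3:**
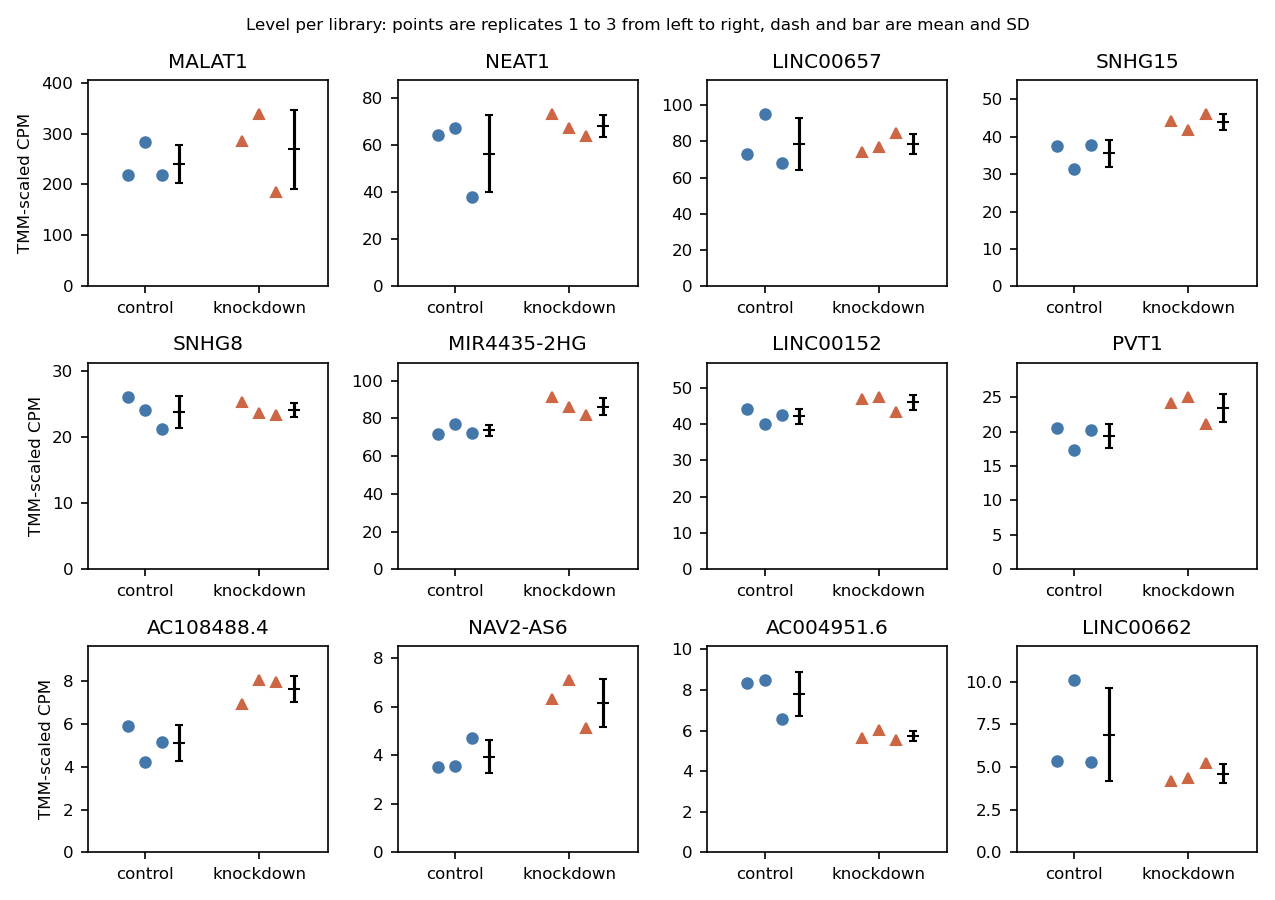
TMM-scaled CPM per library of 12 lincRNAs, with circles for libraries labelled control, triangles for those labelled knockdown, and dash and bar for mean and SD (n = 3). Groups do not overlap in SNHG15, MIR4435-2HG, PVT1, AC108488.4, NAV2-AS6, AC004951.6 and LINC00662, and overlap in the other 5.

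SnoRNA host genes among the members were SNHG15, SNHG8, SNHG18 and EPB41L4A-AS1. Their spliced exons are by-products of snoRNA release and, for several hosts, are known to be removed by nonsense-mediated decay. SNHG15 (chromosome 7, 44983019 to 44986961, minus strand) held 37.5, 31.5 and 37.8 CPM in the libraries labelled control and 44.3, 41.8 and 46.0 CPM in those labelled knockdown. All 3 knockdown values lay above all control values. The log2 fold change was 0.31 (standard error 0.115, edgeR unadjusted p = 0.0247, adjusted p = 0.605). SNHG8 held 26.1, 24.14 and 21.3 CPM against 25.4, 23.7 and 23.4 CPM, with a log2 fold change of 0.02 (95% interval -0.258 to 0.298). SNHG18 and EPB41L4A-AS1 had log2 fold changes of -0.13 and 0.10, and the median of the 4 hosts was 0.0606. Of 15 snoRNP protein rows tested, 0 had an unadjusted p under 0.05, with a median log2 fold change of 0.0479. The same count was 0 of 16 for nonsense-mediated decay factors, with a median of 0.0737. Over all tested genes the share was 8.18%.

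MicroRNA host genes were MIR4435-2HG, LINC00152, PVT1, CTC-231O11.1 (MIR3142HG) and MIR222HG. Mature microRNAs from inside 4 of them are printed because they are the best known products of these loci. Others inside the same hosts, such as hsa-miR-146a-3p and hsa-miR-222-5p, are not shown. The printed sequences were taken from RefSeq (GRCh38.p14), with the seed, bases 2 to 8, in capitals. The small RNAs themselves were not measured, since poly(A) selected libraries do not hold them.
hsa-miR-4435: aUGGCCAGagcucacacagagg
hsa-miR-146a-5p: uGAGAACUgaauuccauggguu
hsa-miR-3142: aAGGCCUUucugaaccuucaga
hsa-miR-221-3p: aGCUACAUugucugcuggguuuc
hsa-miR-222-3p: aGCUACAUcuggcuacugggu
The first is encoded at 2 places on chromosome 2 with the same mature sequence, inside MIR4435-2HG (111321061 to 111321082) and inside LINC00152 (87629764 to 87629785). The next 2 lie inside CTC-231O11.1 on chromosome 5 (160485372 to 160485393 and 160474492 to 160474513), miR-146a being a repressor of NF-kB signalling. The last 2 lie inside MIR222HG on the X chromosome (45746180 to 45746202 and 45747036 to 45747056) and share the seed GCUACAU. A row for MIR221 was present in the counts table with 0, 8 and 3 reads in the libraries labelled control and 7, 13 and 6 in those labelled knockdown, too few to describe.

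MIR4435-2HG (chromosome 2, 111006015 to 111523376, minus strand) held 71.8, 77.0 and 72.2 CPM in the libraries labelled control and 91.1, 86.1 and 81.6 CPM in those labelled knockdown. The groups did not overlap, and its replicates were among the tightest of the members, with a within-group SD of 0.069 on the log2 scale. Its log2 fold change was 0.23 (standard error 0.094, edgeR unadjusted p = 0.0381, adjusted p = 0.605). Its near copy LINC00152, called CYTOR, a cytoplasmic RNA studied in tumours, held 44.1, 40.05 and 42.5 CPM against 47.1, 47.4 and 43.5 CPM. Here the groups overlapped, with a log2 fold change of 0.12 (95% interval -0.106 to 0.352). Reads from the shared windows could be assigned to either gene, so the pair cannot be fully separated.

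PVT1, which lies 59092 bases from MYC by transcription start and is studied as a regulator of MYC protein, held 20.5, 17.3 and 20.2 CPM in the libraries labelled control and 24.2, 25.0 and 21.2 CPM in those labelled knockdown. The groups did not overlap, with a log2 fold change of 0.28 (edgeR unadjusted p = 0.063, adjusted p = 0.615). MYC mRNA held 178, 179 and 211 CPM against 219, 206 and 202 CPM, and its groups overlapped (log2 fold change 0.14, edgeR adjusted p = 0.697). Over the 5 microRNA hosts the median log2 fold change was 0.123, with 3 positive and 2 negative estimates. With all 6 libraries neither CTC-231O11.1 (-0.41, edgeR unadjusted p = 0.509) nor MIR222HG (-0.25, unadjusted p = 0.394) was close to the threshold.

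Cytoplasmic regulators were represented by LINC00657, MIR4435-2HG and LINC00152. LINC00657 is NORAD (chromosome 20, 36045618 to 36051018, minus strand), which binds the RNA-binding protein PUM2 and protects genome stability. It held 73.0, 94.9 and 67.9 CPM in the libraries labelled control and 74.2, 77.1 and 84.6 CPM in those labelled knockdown. Control replicate 2 was the highest and control replicate 3 the lowest of all 6. The group means were nearly equal at 78.6 ± 14.3 and 78.6 ± 5.38 CPM (SD, n = 3), and the log2 fold change was 0.00 with a 95% interval from -0.307 to 0.307. PUM2 had a log2 fold change of -0.24, with an edgeR adjusted p of 0.711. In a list of 10 genes for partners of this RNA and for microRNA processing, 0 had an unadjusted p under 0.05 and the median log2 fold change was -0.0252. The nuclear exosome and its adaptors, which degrade many noncoding transcripts, gave 0 of 18 genes past the adjusted threshold and a median of -0.00468. EXOSC5, an exosome subunit, was the 1 gene of that list with an unadjusted p under 0.05 (log2 fold change 0.34, edgeR adjusted p = 0.605). Over all tested genes the share with an unadjusted p under 0.05 was 8.18%.

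JPX, an RNA of the X inactivation centre known as an activator of XIST, held 7.46, 11.01 and 11.5 CPM in the libraries labelled control and 10.8, 13.7 and 10.9 CPM in those labelled knockdown. Control replicate 1 was the lowest, the groups overlapped, and the log2 fold change was 0.24 (95% interval -0.216 to 0.693). The lists of p53-linked (LINC00657, NEAT1 and PVT1), hypoxia-linked (NEAT1) and interferon- or NF-kB-linked lincRNAs (NEAT1 and CTC-231O11.1) each held 0 members with an unadjusted p under 0.05. Their median log2 fold changes were 0.273, 0.273 and -0.0708.

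Members with the smallest p-values outside these groups were mostly low in abundance. AC108488.4 (chromosome 2, 3531813 to 3536873, minus strand) held 5.90, 4.22 and 5.14 CPM in the libraries labelled control and 6.95, 8.03 and 7.97 CPM in those labelled knockdown. Its log2 fold change was 0.59 (standard error 0.196, edgeR adjusted p = 0.599), and its mean was 147.3 raw reads in the libraries labelled control and 244.0 in those labelled knockdown, so it passed the abundance cut only through the second group. NAV2-AS6 (a single-exon gene on chromosome 11, 19710934 to 19712619, minus strand) held 3.53, 3.58 and 4.72 CPM against 6.30, 7.09 and 5.13 CPM. Its log2 fold change was 0.65 (standard error 0.224, edgeR adjusted p = 0.599). This row too passed the cut only through the libraries labelled knockdown, with means of 116.7 and 199.0 raw reads.

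On the lower side, AC004951.6 (chromosome 7, 44004046 to 44007866, minus strand) held 8.36, 8.47 and 6.58 CPM in the libraries labelled control and 5.66, 6.03 and 5.54 CPM in those labelled knockdown. The log2 fold change was -0.44 (standard error 0.182, edgeR unadjusted p = 0.0377, adjusted p = 0.605). LINC00662 held 5.33, 10.07 and 5.30 CPM against 4.19, 4.36 and 5.23 CPM. The groups were separated by less than 0.1 CPM, and control replicate 2 carried the difference, since the log2 fold change went from -0.59 to -0.21 without it. ZNF883, a zinc finger gene, showed the same arrangement, with control replicate 2 at 8.41 CPM and the other 5 libraries at 4.33 to 5.43 CPM (log2 fold change -0.47, and -0.20 without that library). LINC00973 held 26.1, 22.5 and 22.7 CPM against 20.4, 18.7 and 21.3 CPM, a log2 fold change of -0.24 (edgeR adjusted p = 0.633). BAIAP2-AS1 gave -0.32 (edgeR adjusted p = 0.66), and its groups overlapped.

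RP11-14N7.2 held 18.6, 19.03 and 19.4 CPM in the libraries labelled control and 21.0, 22.6 and 24.8 CPM in those labelled knockdown, a log2 fold change of 0.26 (edgeR adjusted p = 0.615). Its level is uncertain because most of its windows occur in other genes. RP11-259N19.1 is HK2-DT, transcribed divergently from the hexokinase gene HK2 with starts 140 bases apart. It held 4.06, 4.34 and 4.33 CPM against 6.74, 5.09 and 5.13 CPM, without overlap (log2 fold change 0.41, edgeR adjusted p = 0.623). HK2 mRNA, the hexokinase of growing tissues, held 27.6, 24.5 and 30.2 CPM against 34.5, 43.8 and 24.5 CPM, with overlap (log2 fold change 0.32, edgeR adjusted p = 0.667). LINC01089, the last row inside the cut, held 4.10, 5.17 and 3.50 CPM against 5.07, 3.63 and 8.31 CPM. Knockdown replicate 3 carried its difference, as the log2 fold change was 0.41 with that library (edgeR adjusted p = 0.72) and 0.03 without it.

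The spread between replicates was close to that of all tested genes and wider than that of tested genes above the same count cut, whose counts were not matched to those of the members. The median within-group SD of log2 CPM was 0.215 over the members, 0.224 over all tested genes and 0.168 over the 10592 tested genes with a mean count of 150 or more. In 17 members the highest library exceeded the lowest by more than 2-fold, and in 5 by more than 3-fold. These 5 were LINC00880, CTC-231O11.1, HCG22, BCYRN1 and CTC-444N24.11, chosen for description after their values were seen.

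LINC00880 held 0.902, 5.45 and 7.32 CPM in the libraries labelled control and 6.12, 8.42 and 1.84 CPM in those labelled knockdown. CTC-231O11.1 held 2.17, 20.3 and 11.01 CPM against 9.64, 10.6 and 4.99 CPM. HCG22, a gene next to the mucin gene MUC22 on chromosome 6, held 1.97, 13.6 and 9.37 CPM against 6.71, 7.51 and 3.46 CPM. In each of the 3, control replicate 1 was the lowest library and knockdown replicate 3 the second lowest, and the highest over lowest ratios were 9.34, 9.36 and 6.92. Control replicate 1 was also the shallowest library and knockdown replicate 3 the next shallowest. CTC-444N24.11 followed the same order at its lower end, with 5.04 CPM in control replicate 1, 5.65 CPM in knockdown replicate 3 and 10.2 to 15.7 CPM in the other 4 libraries. MIR222HG was also lowest in control replicate 1, at 5.17 CPM against 6.30 to 11.01 CPM. BCYRN1 ran the other way, with 402, 200 and 126 CPM against 153, 95.3 and 211 CPM, so that control replicate 1 was the highest and knockdown replicate 3 the second highest. In each of these members the spread within the control group alone exceeded 2-fold.

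Without control replicate 1 the estimates of members that were lowest or highest in that library moved. CTC-231O11.1 went from -0.41 to -0.89, HCG22 from -0.50 to -0.96, MIR222HG from -0.25 to -0.52 and BCYRN1 from -0.66 to -0.09, and LINC00880 went from 0.25 to -0.22. None of these passed an adjusted p of 0.05 in that fit, in which edgeR gave 11 members (12.8%) an unadjusted p under 0.05 beside 12.4% of all tested genes. CTC-231O11.1, HCG22 and MIR222HG were among the 11, each lower in the libraries labelled knockdown. Over all members, control replicate 1 was the lowest library in 26 (30.2%, against 19.5% of tested genes with a mean count of 150 or more) and the highest in 19 (22.1%, against 17.5%). Control replicate 2 was the lowest in 12.8% of members, against 27.7% of those genes, and knockdown replicate 3 in 9.3%, against 20%. Control replicate 3 was the highest in 2 members (2.33%, against 9.22%). TNFAIP3, an NF-kB target that like miR-146a restrains that pathway, held 53.7, 103 and 212 CPM in the libraries labelled control and 230, 310 and 81.6 CPM in those labelled knockdown. It too was lowest in control replicate 1 and second lowest in knockdown replicate 3, and control replicate 2, the highest library for CTC-231O11.1, had rank 4 for TNFAIP3. NFKBIA, the gene of the NF-kB inhibitor IkB-alpha, held 97.3, 172 and 338 CPM against 294.5, 339.8 and 147 CPM, with the same 2 libraries lowest. NEAT1, the other member on the interferon- or NF-kB-linked list, was instead lowest in control replicate 3, at 37.8 CPM. It held 64.2 CPM in control replicate 1. TNFAIP3 and NFKBIA were named after their values were seen. The part of depth, of control replicate 1 or of NF-kB signalling in these values was not tested.

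**Figure D4:**
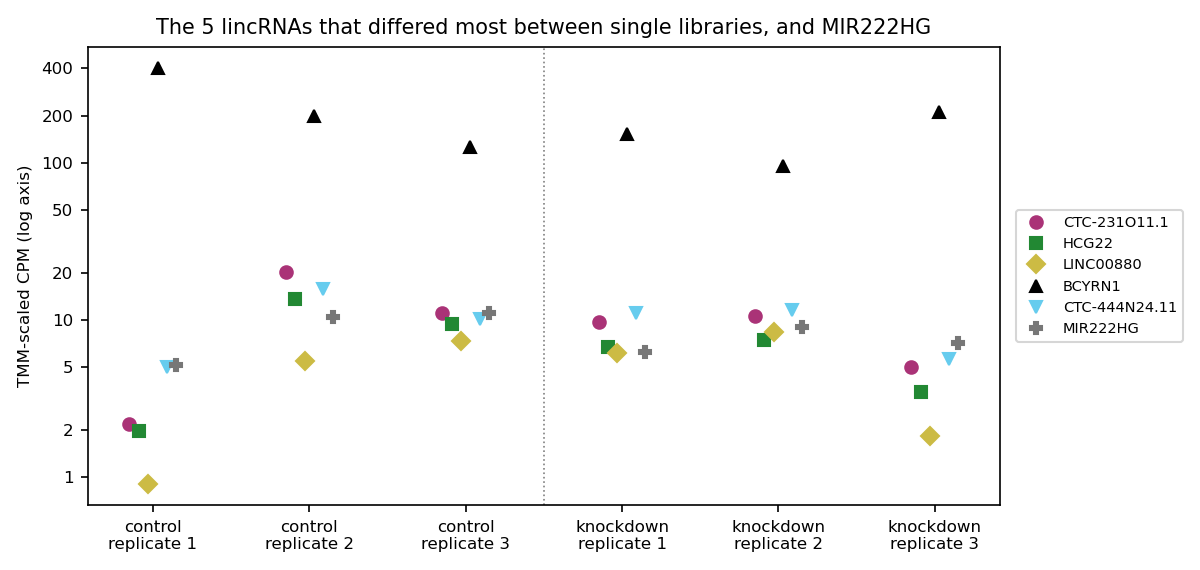
TMM-scaled CPM (log axis) in each of the 6 libraries of the 5 lincRNAs that differed most between libraries and of MIR222HG. CTC-231O11.1, HCG22, LINC00880 and CTC-444N24.11 are lowest in control replicate 1 and second lowest in knockdown replicate 3, where BCYRN1 is highest and second highest.

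Promoter sequence from RefSeq (250 bases before to 50 after the start, GRCh38.p14) was matched to 42 of the 86 members, with 52 promoters. The window of MIR3142HG, the RefSeq name of CTC-231O11.1, is shown because this host varied most among the microRNA hosts and was on the NF-kB-linked list. It lies at chr5:160468001-160468300 on the plus strand, and the capitals mark its 1 match to the NF-kB motif, which begins 120 bases before the RefSeq start. In GENCODE 44 the gene spans 160438594 to 160487426, so the window lies inside it.
MIR3142HG promoter: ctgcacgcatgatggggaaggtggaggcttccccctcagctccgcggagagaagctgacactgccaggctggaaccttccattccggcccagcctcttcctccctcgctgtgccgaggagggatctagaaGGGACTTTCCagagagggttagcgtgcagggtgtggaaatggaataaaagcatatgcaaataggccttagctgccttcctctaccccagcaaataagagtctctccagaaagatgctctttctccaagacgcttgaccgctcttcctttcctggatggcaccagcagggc
An NF-kB motif was searched on both strands and added after the levels were seen. It occurred in 5 of 52 member promoters (9.62%) and in 5.9% of the 34943 promoters in the table. These 5 promoters belonged to 4 members, CTC-231O11.1, CTC-459F4.3, LINC01508 and ZNF667-AS1. Of these, ZNF667-AS1 shared with CTC-231O11.1 the order of control replicate 1 lowest and knockdown replicate 3 second lowest, at 17.6 and 18.1 CPM. LINC01508 was highest and second highest there, at 13.6 and 11.05 CPM, and CTC-459F4.3 was lowest in control replicate 3, at 4.69 CPM. The interferon-stimulated response element, searched on both strands as the letters of its core consensus, occurred in 1 member promoter (MIR222HG, 1.92%) and in 3.57% of all promoters. The E-box CACGTG, which reads the same on both strands, occurred in 7.69% of member promoters (LINC00657, LINC00863, LINC01508 and ZNF667-AS1) and in 7.23% of all. The longest unbroken run of C and T on the gene's own strand had a median of 9 bases in both sets. A match is a description of letters and not of binding.

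Some lincRNAs start beside a protein-coding gene, and divergent pairs of this kind can share a promoter region. Positions were available for 82 members, whose nearest tested protein-coding start lay a median of 43794.5 bases away. In 12 members it lay within 1000 bases, and 8 of those pairs were divergent. Across the 82 pairs, with 80 distinct neighbours, the log2 fold changes of member and neighbour had a Pearson r of 0.0881 and a Spearman rho of 0.109, and 38 pairs had the same sign. For the 12 close pairs the values were 0.371 and 0.315, and 6 pairs had the same sign. These are descriptions across genes measured in the same 6 libraries.

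Close pairs behaved individually. LINC01006 (RNF32-DT) and RNF32, with starts 373 bases apart, had log2 fold changes of 0.35 and 0.24. BAIAP2-AS1 and BAIAP2, a regulator of membrane curvature and actin, differed in sign, at -0.32 and 0.24. RP4-621F18.2 started 113 bases from DDAH1, an enzyme that degrades asymmetric dimethylarginine. This pair was not divergent, as the lincRNA lay inside DDAH1 and overlapped its exons on the same strand. It shared 7.86% of its windows with DDAH1. Reads from the shared sequence could be assigned to either gene, so the pair cannot be fully separated. The log2 fold change was -0.11 for the lincRNA and -0.44 for DDAH1 (edgeR unadjusted p = 0.00386, adjusted p = 0.599). The pairs SNHG18 with SEMA5A and RP11-12G12.7 with PCCA had lincRNA estimates of -0.13 and -0.17 beside neighbour estimates of -0.03 and 0.01. EPCAM, the nearest protein-coding gene to BCYRN1, had a log2 fold change of -0.04 beside -0.66 for the BCYRN1 row.

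**Figure D5:**
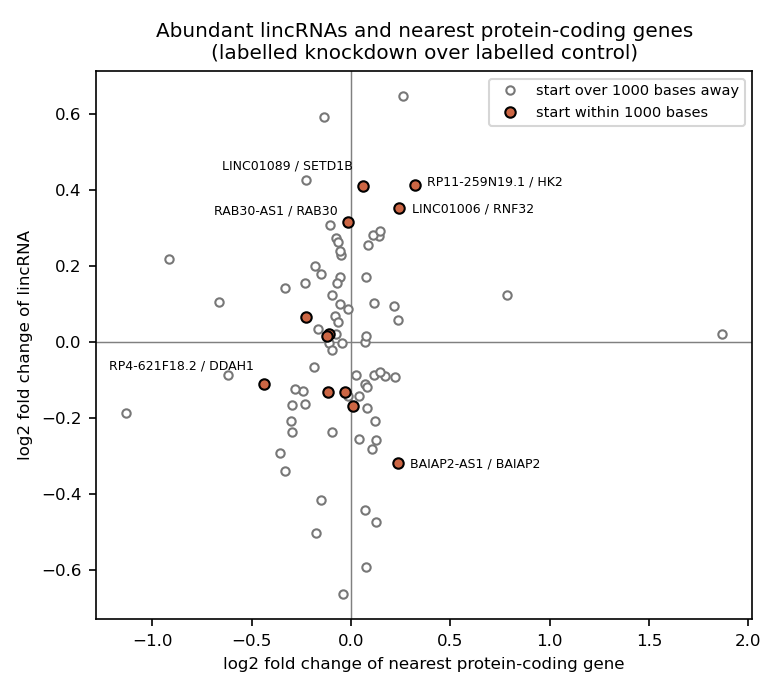
Log2 fold change (labelled knockdown over labelled control) of each of 82 lincRNAs against that of the nearest tested protein-coding gene, with filled points for the 12 pairs whose starts lie within 1000 bases. Of these 12, 6 have the same sign in both genes, and the pair RP11-259N19.1 and HK2 stands at 0.41 and 0.32.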

How the data were processed

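Gene-level raw read counts and FPKM for the 6 libraries were deposited by the authors. The deposited counts were not normalised and were used as given. The deposited FPKM values (fragments scaled to transcript length and depth) served for levels between genes, for implied transcript lengths and for the alternative fits on log2 FPKM. The submitters' processing notes name TopHat2, bcl2fastq, edgeR and GRCh38, without versions, whereas for the counting program, the annotation release and the strand setting nothing is given in the sources used here. All per-sample columns were used.

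Groups were taken from the labels. Counts were tested with edgeR 4.0.16 in R 4.3.3 (quasi-likelihood test, TMM, filterByExpr with a minimum count of 10 and a total of 15, all 6 libraries, no covariates, two-sided), with Benjamini-Hochberg adjustment over 15299 genes. The script recovered known changes when tested on simulated data. Those changes were larger than any estimate among the members, and every gene had the same dispersion. The check therefore does not measure power for differences of the size seen here. Alternatives were RLE, upper-quartile and library-size scaling, no filter, DESeq2 1.42.0, limma 3.58.1 (voom, and trend on log2(FPKM + 1) and log2(FPKM + 0.1)), a replicate block and leaving out each library. Positions, biotypes and neighbours came from GENCODE 44, in which 26125 of 26899 identifiers were found. Sequences came from RefSeq.

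The members and the gene lists were chosen with earlier results of these data known. Named members were the 12 with the highest FPKM, the 5 with the smallest p in each direction, the 2 highest of each role group and the 3 rows at the cut. Any other gene was named after its values were seen. Some genes of the lists and some neighbours are not reported here.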

Additional observations from a re-analysis of the deposited data

How the results depend on the processing

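The count of members past an adjusted p of 0.05 was 0 in edgeR with other scalings, DESeq2, voom, both FPKM fits, the replicate block and each fit without 1 library. It was 1 without the low-count filter (BCYRN1, log2 fold change -0.66, adjusted p = 1.47e-05, beside 165 of 26899 genes), and BCYRN1 had adjusted p-values up to 0.988 elsewhere. Counts at an unadjusted p under 0.05 were 4 higher and 1 lower. Lower members numbered 3 without the filter (8.14% of members in all, beside 7.73% of all genes), 2 in each FPKM fit (8.14%, beside 8.43% and 8.3%) and 0 with the replicate block, which left 3 members in all (3.49%, beside 7.03%). With 1 library left out, 1 to 5 were higher and 0 to 7 lower, as the share moved from 1.16% of members and 3.21% of all genes (without knockdown replicate 1) to 12.8% and 12.4% (without control replicate 1). The single higher member was AC108488.4, without knockdown replicate 1, and the 7 lower arose without control replicate 1. At a mean count cut of 100 (121 rows) 7 were higher and 2 lower, and at 300 (47 rows) 2 and 0. Over all tested genes 3.86% were higher and 4.32% lower at an unadjusted p under 0.05. The share of reads was 0.1874% at 100 in the libraries labelled knockdown, 0.1526% (control) and 0.1476% (knockdown) at 300, and 0.1829% (knockdown) with mitochondrial reads left out. Without BCYRN1, chosen after seeing the data, it was 0.1539% and 0.1577%. The numbers did not pair the libraries, as the deviations of same-numbered libraries correlated at -0.062, 0.118 and -0.203.

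Of 243 estimates for 27 named members under 9 alternatives, 232 kept direction and side of the threshold and 11 changed sign, all close to zero. With library size only these were CTB-151G24.1 (-0.0097), LINC00657 (-0.025), LINC00998 (-0.0019) and SNHG8 (-0.0042). On log2(FPKM + 1) they were -0.0013, -0.0022 and -0.0054 and on log2(FPKM + 0.1) -0.0014, -0.0015 and -0.0062 for the first 3. Upper-quartile scaling moved CTB-193M12.5 to 0.011. With 1 library left out, estimates spanned zero for CTB-151G24.1 (-0.041 to 0.065), CTB-193M12.5 (-0.028 to 0.046), CTC-231O11.1 (-0.89 to 0.34), LINC00657 (-0.094 to 0.16), LINC00839 (-0.021 to 0.068), LINC00958 (-0.050 to 0.19), LINC00998 (-0.13 to 0.095), MALAT1 (-0.021 to 0.38), RP11-620J15.3 (-0.045 to 0.24), SFTA1P (-0.41 to 0.063) and SNHG8 (-0.053 to 0.090), and among members singled out later for CTC-444N24.11 (-0.45 to 0.31), HCG22 (-0.96 to 0.047) and LINC00880 (-0.22 to 0.77). The cause of these changes was not tested.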
